A study of Homo sapiens with 38 samples.

Results

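The 9 genes described here, HMGA2, LIN28B, IGF2BP1, IGF2BP2, IGF2BP3, ARID3B, TRIM71, NR6A1 and NRAS, are textbook targets of the let-7 microRNAs. They were taken by name from a list of known targets and not by their values in these libraries, although earlier results of these data were known. They are 9 of the 58425 genes with a matched transcript. RNA-seq had been carried out on cytoplasmic and nuclear RNA of the human colorectal cancer line HCT116 and of 4 lines edited from it with CRISPR. These were made to lack AGO1, AGO2, both of these (AGO1/2, the double knockout) or AGO3 as well (AGO1/2/3, the triple knockout). Genotype and fraction gave 10 groups of 3 libraries, which are named by culture passage: 27, 28 and 29 for wild type, 6, 7 and 8 for AGO1, 8, 9 and 10 for AGO2, 9, 10 and 11 for the double knockout, and 11, 12 and 14 for the triple knockout. Genotype, clone and passage cannot be told apart, since every genotype is represented by 1 line, and p-values measure the spread between cultures of 1 line.

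Cytoplasmic libraries held 39476205 to 79731793 estimated reads and nuclear libraries 20431557 to 54097984, and the wild-type libraries were the shallowest of both fractions. Over all genes wild-type replicate 29 stood apart in both fractions. Its chi-square per degree of freedom against replicates 27 and 28 was 78.6 and 73.3 in the cytoplasm and 43.4 and 39.2 in nuclei, where 27 against 28 gave 7.47 and 4.83. All comparisons with wild type share it. Double knockout replicates 10 and 11 also lay far apart, at 129 in the cytoplasm and 41.7 in nuclei. AGO1 mRNA fell in the cytoplasm of the 3 lines labelled as lacking AGO1, by 3.49 in AGO1 knockout, by 3.19 in double knockout and by 3.29 in triple knockout cells on the log2 scale. AGO2 mRNA fell by 0.67 in AGO2 knockout cytoplasm, whereas in cytoplasm labelled as double knockout it was higher by 0.31. AGO3 mRNA in cytoplasm labelled as triple knockout was higher by 0.34. These values are for the cytoplasm only. In nuclei the edgeR test described below called 1 of the 4 AGO genes higher and 2 lower in double knockout cells (32.9% and 34.7% of all genes). In triple knockout nuclei it called 1 higher and 3 lower (29.1% and 29.5%). Since small edits can leave an mRNA in place, the mRNA does not check these labels. The study examined AGO protein in these lines by western blot, and its methods cite DNA sequencing of the edits. Neither was analysed here, and double and triple knockout are used as names from the labels, also where a direction is drawn from them. The nuclear RNA MALAT1 was at 1200 to 3486 TPM in nuclear and 79.9 to 156 TPM in cytoplasmic libraries. TPM is a level scaled for transcript length and library total. The epithelial marker EPCAM was at 122.8 to 153 TPM in wild-type cytoplasm, 42.1 to 47.1 TPM in double knockout and 48.8 to 54.2 TPM in triple knockout cytoplasm. The mesenchymal marker VIM had 1.13 to 1.79, 10.9 to 11.8 and 11.8 to 14.0 TPM in the same order. These marker differences move with the same lines as most member results below, and their part in those results was not tested. The fibroblast, blood and endothelial markers COL1A2, PTPRC and PECAM1 stayed at or below 0.115 TPM.

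The let-7 family is among the most conserved groups of animal microRNAs and accumulates as cells differentiate. Its mature RNAs are loaded into AGO proteins and guide them to sites in the 3′ untranslated regions (UTRs) of mRNAs that pair with the seed, the stretch near the 5′ end of the microRNA. Binding represses translation and shortens the life of the mRNA, so a target mRNA is classically expected to accumulate when the pathway is lost. Many let-7 targets are genes of early development and growth that tumours switch on again. The mature let-7 RNAs themselves were not measured in these libraries.

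The let-7 sequences below, from RefSeq (GRCh38.p14), show the shared seed, bases 2 to 8, in capitals. All 12 let-7 and miR-98 loci matched there carry the same 7 letters, and the family differs outside them.
let-7a: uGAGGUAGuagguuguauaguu
let-7d: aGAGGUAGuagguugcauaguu
let-7i: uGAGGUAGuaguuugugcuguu
miR-98: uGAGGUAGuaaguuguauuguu

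The 3′ UTRs of the members were searched on the transcribed strand for the letters that pair with this seed. An 8mer is CTACCTCA, a 7mer-m8 is CTACCTC and a 7mer-A1 is TACCTCA, and a stretch that makes an 8mer was counted once, as an 8mer. The windows below, in GRCh38 and 5′ to 3′ on the strand of the gene, give for each member the first match of the strongest kind it has, with the match in capitals. They are shown since let-7 targeting is read from such letters.
HMGA2, chr12:65963313-65963320, plus strand: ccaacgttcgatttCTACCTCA
LIN28B, chr6:105078827-105078834, plus strand: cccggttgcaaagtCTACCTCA
TRIM71, chr3:32891983-32891990, plus strand: acattgcttaagtcCTACCTCA
IGF2BP1, chr17:49051076-49051083, plus strand: gtgtgcgaagtaaaCTACCTCA
IGF2BP2, chr3:185644220-185644227, minus strand: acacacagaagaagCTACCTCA
IGF2BP3, chr7:23311795-23311802, minus strand: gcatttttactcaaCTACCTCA
NR6A1, chr9:124522310-124522317, minus strand: gttgacaaagatgaCTACCTCA
NRAS, chr1:114707902-114707908, minus strand: agttctcagaataaCTACCTC
ARID3B, chr15:74598116-74598122, plus strand: atttcaataaacctCTACCTC

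All of these windows lie in the 3′ UTR of the canonical transcript of the gene in GENCODE 44. The 9 canonical 3′ UTRs are 2153 to 6701 bases long and hold 41 matches, 1.13 per kilobase. Over 18131 protein-coding genes the density was 0.111 per kilobase, and 15.8% of 3′ UTRs held a match, 3.7% an 8mer and 2.8% at least 2 matches. Among the 4522 genes whose 3′ UTR has a length in the members' range, the shares were 31.4%, 7.5% and 6.2%. Of the members, 7 had an 8mer and 8 had at least 2 matches. TRIM71 had 8 matches, HMGA2 7, ARID3B, LIN28B, IGF2BP1 and NR6A1 5 each, IGF2BP2 3, NRAS 2 and IGF2BP3 1. NRAS and ARID3B had 7mers and no 8mer. The first HMGA2 match begins 21 bases into its 3′ UTR and the last 2541 bases in, of 2999 bases. A letter match is a description of the sequence and not a measured binding site.

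**Figure D1:**
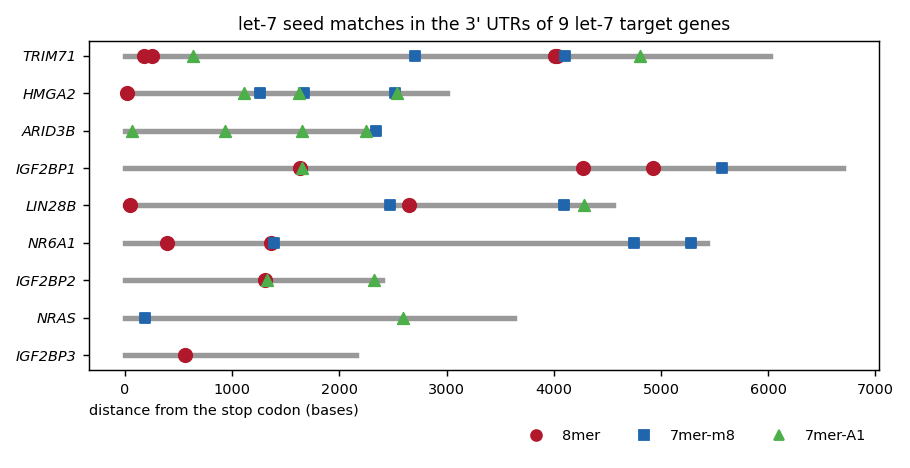
Positions of let-7 seed matches along the canonical 3′ UTR of each member, plotted as bases from the start of the UTR, with marker shapes for 8mer, 7mer-m8 and 7mer-A1 matches and a line for the length of the UTR. TRIM71 carries 8 matches, HMGA2 7 and IGF2BP3 1.

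Levels per length spread over more than 4 orders of magnitude. In wild-type cytoplasm IGF2BP3 had 60.7 ± 11.2 TPM (SD, n = 3), HMGA2 49.8 ± 8.67 TPM and IGF2BP2 49.1 ± 1.42 TPM, and the libraries of each of these neighbours overlapped. NRAS followed at 26.2 ± 3.33 TPM, below all libraries of the first 3 genes. NR6A1 (1.98 ± 0.431 TPM) and ARID3B (1.65 ± 0.0514 TPM) overlapped each other, IGF2BP1 had 0.141 ± 0.0442 TPM, and LIN28B and TRIM71 averaged 0.0259 and 0.00193 TPM. In double knockout cytoplasm HMGA2 led with 87.0 ± 11.5 TPM, and IGF2BP3 lay below NRAS, with 22.9 ± 4.41 TPM. In triple knockout cytoplasm HMGA2 had 94.9 ± 5.26 TPM. In wild-type nuclei the order was HMGA2 (219 ± 46.1 TPM), IGF2BP3 (121 ± 4.61 TPM), IGF2BP2 (67.3 ± 1.39 TPM) and NRAS (11.6 TPM).

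Counts per gene were compared with edgeR's quasi-likelihood test, with all 15 libraries of a fraction in 1 fit, and genes with an adjusted p (Benjamini-Hochberg) up to 0.05 were called, over the 17605 cytoplasmic or 18919 nuclear genes tested. TRIM71 had too few reads to be tested, which leaves 8 members. Every comparison with wild type in a fraction uses the same 3 wild-type libraries.

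In cytoplasmic RNA of AGO1 knockout cells 0 of 8 members were called, where 4.28% of all genes tested were called higher and 8.13% lower. At an unadjusted p under 0.05 the edgeR test passed 3 of them, LIN28B, IGF2BP1 and ARID3B, each with a lower value, DESeq2 called 0 and limma on log2(TPM + 1) called 1, ARID3B. In AGO2 knockout cytoplasm 2 members were called higher, HMGA2 and IGF2BP2, and 1 lower, IGF2BP3, where 7.07% of all genes were called higher and 9% lower. In double knockout cytoplasm 5 members were called higher (HMGA2, IGF2BP1, IGF2BP2, ARID3B and NRAS) and 2 lower (IGF2BP3 and LIN28B), against 23.9% and 25.4% of all genes. The share called higher is thus above that of all genes, and the share called lower is close to it. The median log2 fold change was 0.48 over the 8 members and -0.01 over all genes. In triple knockout cytoplasm the same 5 members were called higher and 1, IGF2BP3, lower, against 18.6% and 20% of all genes, with medians of 0.33 and -0.01. Normalised counts did not overlap with wild type for 3 members in AGO1, 3 in AGO2, 7 in double and 6 in triple knockout cytoplasm, against 29.7%, 31.8%, 51% and 46.5% of all genes. These cytoplasmic counts depend on the scale. With limma on log2(TPM + 1), HMGA2 and IGF2BP3 remained called in both lines and the other members were not called.

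In nuclear RNA the members followed the background more closely. In AGO1 knockout nuclei 1 member was called higher (NRAS) and 1 lower (LIN28B), where 14.3% and 15.6% of all genes were called. In AGO2 knockout nuclei 1 was higher (IGF2BP2) and 2 were lower (HMGA2 and IGF2BP3), against 20.2% and 19.9%. In double and triple knockout nuclei alike, 3 members were called higher (IGF2BP1, IGF2BP2 and NRAS) and 3 lower (LIN28B, IGF2BP3 and NR6A1). The background was 32.9% higher and 34.7% lower in double knockout nuclei, and 29.1% higher and 29.5% lower in triple knockout nuclei. The median log2 fold change of the members was 0.11 and 0.06 in these lines. Normalised counts did not overlap with wild type for 3 members in AGO1, 5 in AGO2, 6 in double and 6 in triple knockout nuclei, against 41.8%, 48.4%, 66.5% and 61% of all genes.

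**Figure D2:**
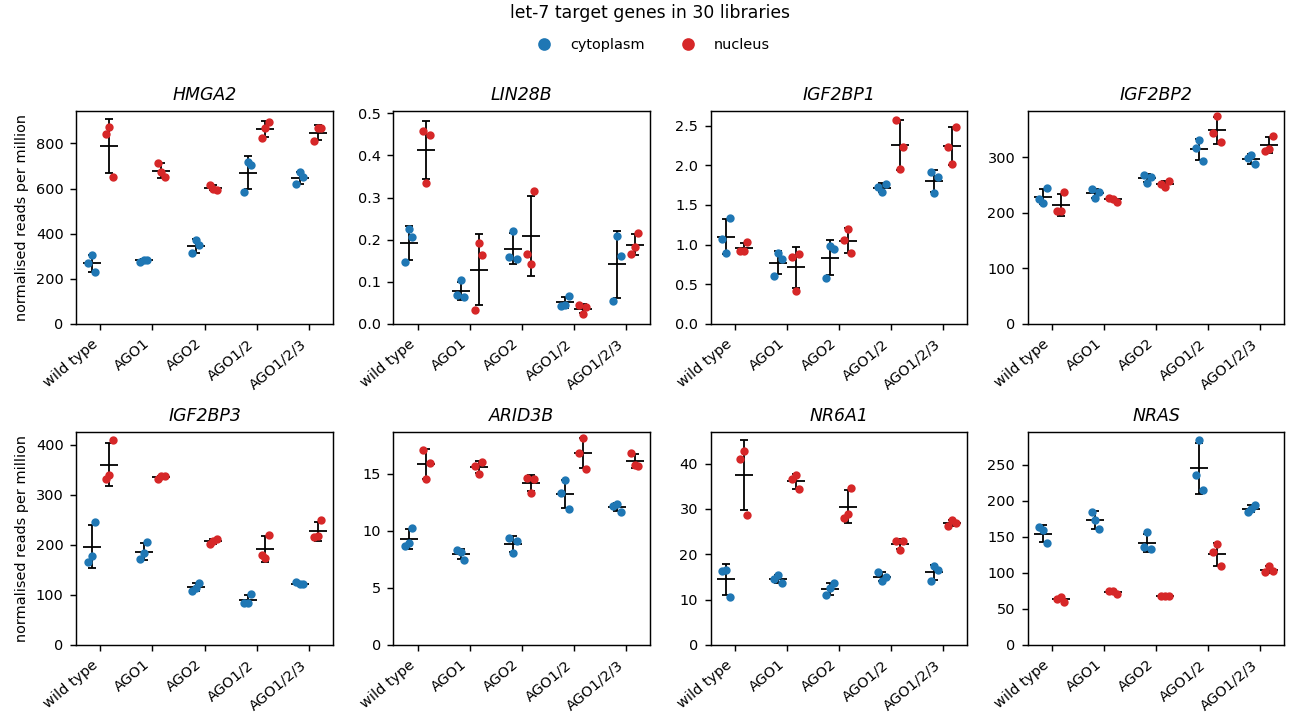
Normalised counts (CPM, scaled to library size) of 8 members in each library of the cytoplasm and the nucleus, by genotype, with the mean and SD of 3 libraries and a linear vertical axis from 0 that differs between genes. The fractions were scaled separately. Cytoplasmic HMGA2 lies between 585 and 716 in double knockout libraries and between 230 and 306 in wild-type libraries, and IGF2BP3 lies lower in AGO2, double and triple knockout libraries of both fractions.

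HMGA2 (ENSG00000149948.14, chr12:65824460-65966291, plus strand) encodes an architectural chromatin protein that binds the minor groove of AT-rich DNA, common in embryonic tissue and in tumours. In wild-type cytoplasm HMGA2 had 271, 306 and 230 normalised counts (CPM, reads scaled to library size with TMM factors) at passages 27, 28 and 29. The 3 libraries had 275, 285 and 283 CPM in AGO1 knockout and 313, 372 and 350 CPM in AGO2 knockout cells. They had 585, 716 and 706 CPM in double knockout and 620, 672 and 651 CPM in triple knockout cells. The AGO1 knockout libraries lay within the range of wild type, the AGO2 knockout libraries just above it, and the double and triple knockouts well above all other libraries. The fold change from wild type was 2.48 in double knockout cells (log2 1.31 ± 0.10 SE, edgeR adjusted p = 1.5e-07) and 2.40 in triple knockout cells (1.27 ± 0.10, adjusted p = 3e-07). The AGO2 knockout value of 1.28-fold (0.36 ± 0.10, adjusted p = 0.0258) was called, and the AGO1 knockout value of 0.06 ± 0.10 was not (adjusted p = 0.73). The AGO2 call was lost without wild-type replicate 27 or 29 or AGO2 knockout replicate 9 or 10, at 0.26 to 0.37. Set against the single knockouts directly, double knockout cytoplasm was higher by 1.25 than AGO1 knockout (adjusted p = 1.5e-07) and by 0.95 than AGO2 knockout cytoplasm (adjusted p = 3.4e-06).

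Nuclear HMGA2 went another way. Its levels were 843, 874 and 651 CPM in wild type, 715, 672 and 652 CPM in AGO1 knockout and 617, 599 and 595 CPM in AGO2 knockout nuclei. Double knockout nuclei had 826, 870 and 895 CPM and triple knockout nuclei 809, 867 and 869 CPM, within or just above the range of wild type. HMGA2 fell in AGO2 knockout nuclei (0.765-fold, log2 -0.39 ± 0.09, edgeR adjusted p = 0.00277). The values were 0.13 ± 0.09 in double knockout (adjusted p = 0.201) and 0.10 ± 0.09 in triple knockout nuclei (adjusted p = 0.322), and both turned to -0.18 when counts were scaled for transcript length. With limma on log2(TPM + 1) the triple knockout value was -0.46 and called lower (adjusted p = 0.0115). Wild-type replicate 29 was the lowest wild-type library in both fractions. Without it the AGO1 knockout value in nuclei, -0.22 ± 0.09 (adjusted p = 0.0771), became -0.33 and was called, and without replicate 28 the double knockout value became 0.24 and was called.

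The transcripts behind these gene totals moved apart. The canonical HMGA2 transcript (ENST00000403681.7), which ends in the 3′ UTR with 7 matches, carried 42.6 ± 7.55 TPM of wild-type cytoplasmic HMGA2, or 85.7%, and 58.5 ± 10.6 TPM of nuclear HMGA2, or 26.9%. The other 10 transcripts, which lie to 26.6% to 91.9% of their length in its introns, carried 160 ± 35.6 TPM in wild-type nuclei and 7.13 ± 1.40 TPM in wild-type cytoplasm. In nuclei the canonical transcript had 54.1 ± 5.17 TPM in AGO1, 53.0 ± 1.003 TPM in AGO2, 124 ± 4.72 TPM in double knockout and 99.5 ± 6.49 TPM in triple knockout cells. The last 2 groups lay above all wild-type libraries, at 2.12 and 1.7 times the wild-type mean. In the cytoplasm the same transcript stood at 1.92 and 2.08 times. These are ratios of TPM, without TMM factors, and not on the scale of edgeR's folds. Total HMGA2 in TPM went from 49.8 to 87.0 in double knockout cytoplasm and from 219 to 178 in nuclei. The edgeR folds there were 2.48 and 1.09. The other transcripts together had 89.4 ± 16.5, 73.7 ± 8.96, 53.7 ± 2.36 and 57.2 ± 6.90 TPM in nuclei of the 4 knockout lines in the same order, each group below all wild-type libraries. The split among transcripts is Salmon's estimate from reads that many of them share.

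The share of the reads of a library on annotated retained-intron transcripts of all genes moved with this result. It was 8.31% ± 0.209 in wild-type nuclei, 7.11% in AGO1, 6.30% in AGO2, 4.22% ± 0.162 in double knockout and 4.84% ± 0.369 in triple knockout nuclei, and 1.44% to 1.61% in the cytoplasmic groups. Its part in the HMGA2 result was not tested.

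**Figure D3:**
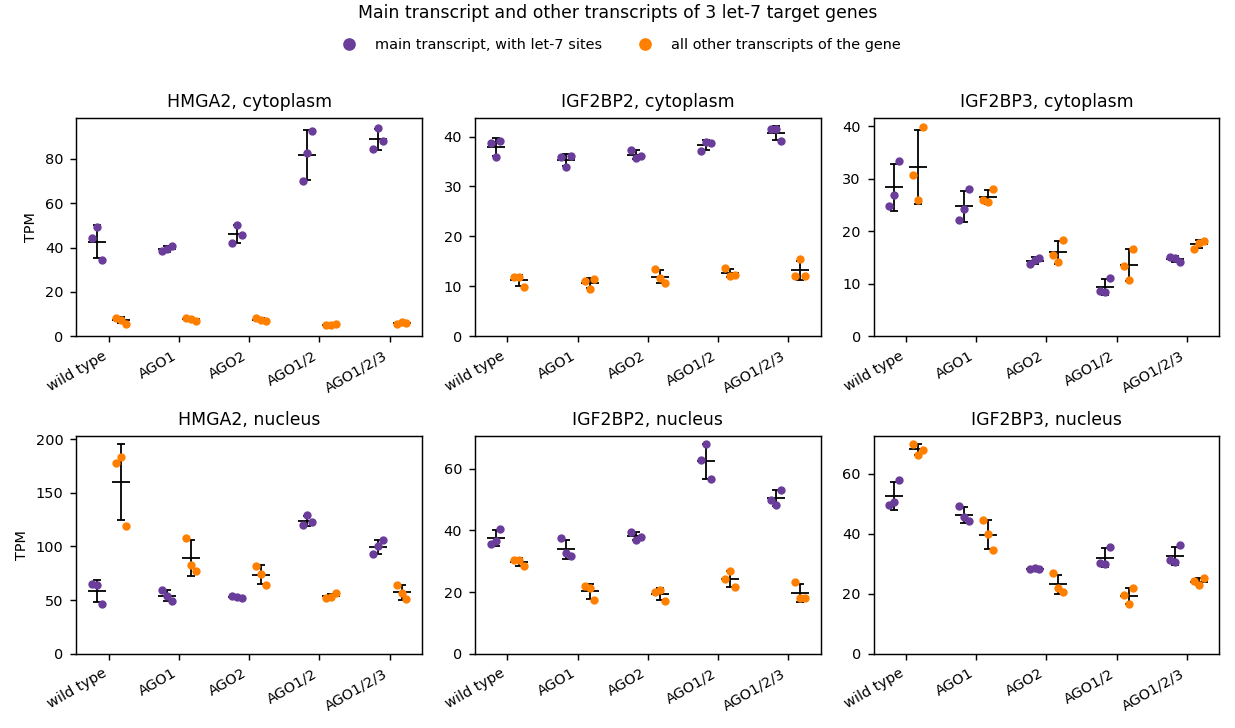
TPM of the canonical transcript and summed TPM of all other transcripts of HMGA2, IGF2BP2 and IGF2BP3 in each library, by genotype and fraction, with the mean and SD of 3 libraries. In nuclei canonical HMGA2 goes from 58.5 TPM in wild type to 124 TPM in double knockout cells, while the other HMGA2 transcripts go from 160 to 53.7 TPM.

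For HMGA2, IGF2BP2 and NR6A1, transcripts with an annotated 3′ UTR were split by whether they hold a seed match. In HMGA2 these include transcripts annotated for nonsense-mediated decay. The share of the TPM of all split transcripts on those with a match was compared with an exact two-sided permutation test, 24 comparisons in all. For HMGA2 it was 87.4% ± 1.14 in wild-type cytoplasm, 95.4% ± 0.856 in double knockout and 95.2% ± 0.112 in triple knockout cytoplasm. In nuclei it was 32.5% ± 1.48 in wild type and 45.8% ± 2.20, 53.3% ± 3.07, 76.8% ± 1.14 and 71.4% ± 4.03 in AGO1, AGO2, double and triple knockout cells. The libraries of these 6 comparisons did not overlap with wild type. Each exact p was 0.1, the smallest that 3 libraries against 3 allow, and 0.4 after Benjamini-Hochberg adjustment. Group means of IGF2BP2 stayed between 99.03% and 99.9% and those of NR6A1 between 68.7% and 78.0%. Single libraries ranged from 98.6% to 100% for IGF2BP2 and from 63.8% to 82.0% for NR6A1, and overlapped with wild type in all comparisons.

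The IGF2BP proteins are RNA-binding proteins of fetal tissue and tumours that hold client mRNAs such as IGF2 and MYC in the cytoplasm and protect them from decay. IGF2BP1 (ENSG00000159217.10, chr17:48997385-49056145, plus strand) was barely expressed. It had 1.07, 0.898 and 1.33 CPM in wild-type cytoplasm, 1.73, 1.66 and 1.77 CPM in double knockout and 1.91, 1.65 and 1.85 CPM in triple knockout cytoplasm, so that the double and triple knockouts lay above wild type in all libraries. The AGO1 and AGO2 knockout libraries ranged from 0.607 to 0.889 and from 0.584 to 0.979 CPM, and their differences from wild type, -0.51 ± 0.21 and -0.40 ± 0.21, were not called (edgeR adjusted p = 0.133 and 0.229). IGF2BP1 rose 1.56-fold in double knockout (log2 0.64 ± 0.21, adjusted p = 0.0175) and 1.64-fold in triple knockout cytoplasm (0.71 ± 0.20, adjusted p = 0.0126). Without wild-type replicate 28 these values were 0.52 and 0.58 and no longer called. Each of the 2 calls held in 11 of 15 alternatives, with values down to 0.023 and 0.041. In TPM the groups overlapped, at 0.0995 to 0.187 in wild-type, 0.133 to 0.201 in double knockout and 0.153 to 0.188 in triple knockout cytoplasm. Relative to AGO1 and AGO2 knockout cytoplasm the double knockout value was higher by 1.16 and 1.04 (adjusted p = 0.00022 and 0.00068). In nuclei IGF2BP1 had 0.915, 0.92 and 1.03 CPM in wild type, 2.58, 1.95 and 2.23 CPM in double knockout and 2.24, 2.01 and 2.48 CPM in triple knockout cells, a rise of 2.36-fold and 2.35-fold (adjusted p = 0.00019 and 0.00028).

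IGF2BP2 (ENSG00000073792.16, chr3:185643130-185825042, minus strand), the member of the family that is also widely expressed in adult tissue, changed by less but with a narrow spread. Its cytoplasmic levels were 224, 218 and 244 CPM in wild type, 242, 227 and 237 CPM in AGO1 and 268, 254 and 264 CPM in AGO2 knockout cells. They were 317, 332 and 294 CPM in double knockout and 298, 304 and 287 CPM in triple knockout cells. The AGO1 knockout libraries lay within wild type and those of the other 3 lines above it. IGF2BP2 rose 1.37-fold in double knockout (log2 0.46 ± 0.06, edgeR adjusted p = 2.6e-05) and 1.30-fold in triple knockout cytoplasm (0.38 ± 0.06, adjusted p = 0.00023). Both calls were lost with limma on log2(TPM + 1). Over all alternatives IGF2BP2 went down to 0.052 in double knockout and 0.13 in triple knockout cytoplasm. Its value in AGO2 knockout cytoplasm was 0.20 ± 0.06 (adjusted p = 0.0427), was lost without any 1 of 5 of the 6 libraries (all but wild-type replicate 29), and turned to -0.023 with limma on log2(TPM + 1). In nuclei it had 203, 203 and 238 CPM in wild type, 344, 374 and 327 CPM in double knockout and 312, 315 and 338 CPM in triple knockout cells, 1.62-fold and 1.501-fold higher (log2 0.70 and 0.59, adjusted p = 3.9e-07 and 3.7e-06). With limma on log2(TPM + 1) the double knockout call held, while the triple knockout value was 0.058 and the call was lost (adjusted p = 0.585). In AGO2 knockout nuclei, at 246 to 258 CPM, it was called higher by 0.23 ± 0.07 (adjusted p = 0.0147), where limma on log2(TPM + 1) gave -0.23.

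IGF2BP3 (ENSG00000136231.14, chr7:23310209-23470491, minus strand) was the member with 1 match, and its calls were lower where those of its paralogs were higher. It had 166, 178 and 245 CPM in wild-type cytoplasm, 171, 184 and 206 CPM in AGO1 knockout and 108, 115 and 124 CPM in AGO2 knockout cytoplasm. Double knockout cytoplasm had 83.3, 84.3 and 101 CPM and triple knockout cytoplasm 125, 121 and 121 CPM. All libraries of the 3 lines labelled as lacking AGO2 lay below all libraries of wild type and of AGO1 knockout. IGF2BP3 fell to 0.589-fold in AGO2 (log2 -0.76 ± 0.13, edgeR adjusted p = 0.00091), 0.457-fold in double knockout (-1.13 ± 0.13, adjusted p = 5.1e-06) and 0.625-fold in triple knockout cytoplasm (-0.68 ± 0.13, adjusted p = 0.00067). In AGO1 knockout cells its value was -0.07 (adjusted p = 0.758). Double knockout cytoplasm was lower by 1.06 than AGO1 knockout cytoplasm on the log2 scale (adjusted p = 6.8e-06) and by 0.37 than AGO2 knockout cytoplasm (adjusted p = 0.0279), the latter call being lost without AGO2 knockout replicate 9 or 10 or double knockout replicate 9 or 10.

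Nuclear IGF2BP3 showed a like order, with 331, 340 and 409 CPM in wild type, 332, 337 and 338 CPM in AGO1, 202, 208 and 212 CPM in AGO2, 179, 173 and 221 CPM in double knockout and 216, 217 and 249 CPM in triple knockout cells. The folds were 0.576, 0.531 and 0.632 in the 3 lines labelled as lacking AGO2 (adjusted p = 1.9e-05, 7e-07 and 2.6e-05). Its canonical transcript went from 28.4 TPM in wild-type cytoplasm to 14.4, 9.34 and 14.8 TPM in these lines, and its other transcripts from 32.2 to 16.0, 13.5 and 17.6 TPM, so both parts were lower. IGF2BP3 shares 1521 exonic bases with MALSU1 on the opposite strand. MALSU1 had 51.7 TPM in wild-type cytoplasm, 57.5 TPM in AGO1, 34.2 TPM in AGO2, 28.3 TPM in double knockout and 29.7 TPM in triple knockout cytoplasm, and was thus also lower in the lines labelled as lacking AGO2. The kit marks strand, the strand setting of the counting is not given in the sources used here, and the part of MALSU1 in the IGF2BP3 result was not tested.

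**Figure D4:**
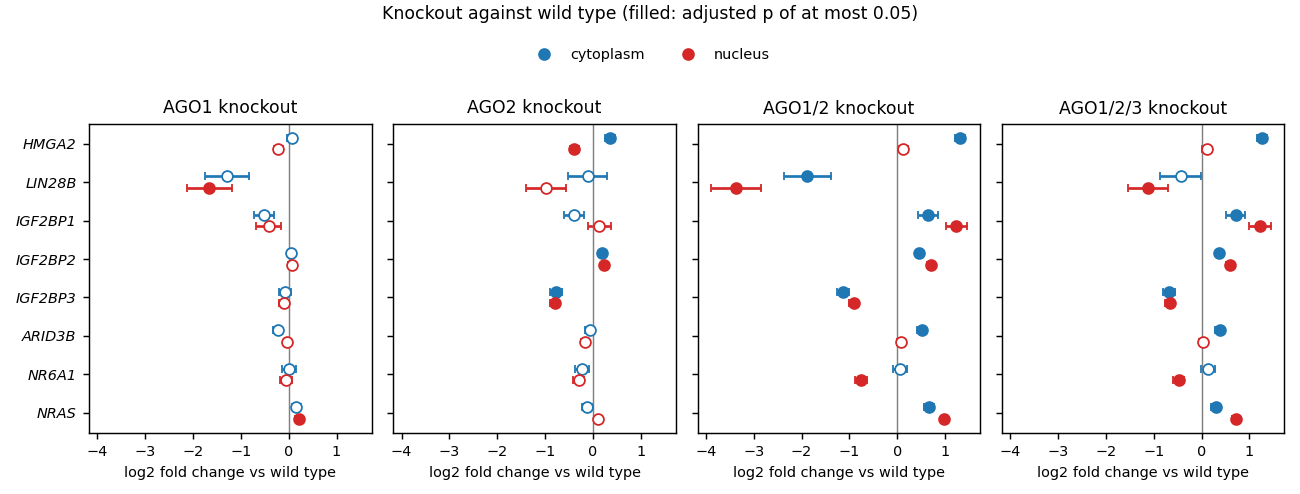
log2 fold change from wild type (edgeR, with its standard error) of 8 members, with a panel for each knockout line, cytoplasm in blue and nucleus in red, and filled symbols at an adjusted p of at most 0.05. In double knockout cells HMGA2 stands at 1.31 in the cytoplasm and 0.13 in the nucleus, and IGF2BP3 at -1.13 and -0.91.

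LIN28B and TRIM71 are parts of the let-7 circuit itself. LIN28B (ENSG00000187772.8, chr6:104936616-105083332, plus strand) binds let-7 precursors and blocks their maturation, and TRIM71 (ENSG00000206557.6, chr3:32817997-32897824, plus strand) is a ubiquitin ligase and RNA-binding protein of stem cells. Both were at the limit of detection. LIN28B had 25 reads in the 3 wild-type cytoplasmic libraries together, 17 in AGO1, 38 in AGO2, 11 in double knockout and 32 in triple knockout cytoplasm. In nuclei it had 31 reads in wild type, 12 in AGO1, 22 in AGO2, 5 in double knockout and 22 in triple knockout cells. Relative to library size, the double knockout level was 0.234 of wild type in the cytoplasm (95% exact interval 0.104 to 0.493) and 0.0733 in the nucleus (0.0222 to 0.19), and these intervals cover counting error only. The edgeR test called LIN28B lower in double knockout cytoplasm (log2 -1.88 ± 0.49, adjusted p = 0.00547) and nuclei (-3.37 ± 0.53, adjusted p = 4.5e-05). It was also called lower in AGO1 (-1.66 ± 0.46, adjusted p = 0.0143) and triple knockout nuclei (-1.13 ± 0.42, adjusted p = 0.0303). The AGO1 call was lost without AGO1 knockout replicate 6, at -1.21, and the triple knockout call without any 1 of 5 of the 6 libraries (all but wild-type replicate 28), at -1.01 to -1.23. Both calls were also lost with limma on log2(TPM + 1), and the triple knockout call with DESeq2 (adjusted p = 0.131). In triple knockout cytoplasm its value was -0.44 ± 0.42 (adjusted p = 0.446). Between triple knockout and double knockout nuclei the difference of 2.24 ± 0.57 was called (adjusted p = 0.0452), where 1.74% of all genes were called higher and 1.74% lower, and the call was lost without any 1 of 5 of the 6 libraries (all but double knockout replicate 11).

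TRIM71 had 3, 2, 3, 8 and 7 reads in the cytoplasm of wild type, AGO1, AGO2, double and triple knockout cells, each summed over 3 libraries. In nuclei it had 14, 6, 5, 15 and 5 reads. Relative to library size the double knockout cytoplasm was 1.42 of wild type, with an exact counting interval of 0.341 to 8.3. A difference for the member with the most seed matches was therefore not detectable in the cytoplasm at this depth. In nuclei the ratio to wild type was 0.314 in AGO1 (0.0988 to 0.869), 0.229 in AGO2 (0.0644 to 0.671), 0.487 in double knockout (0.219 to 1.09) and 0.189 in triple knockout cells (0.0534 to 0.557). The intervals of AGO1, AGO2 and triple knockout nuclei lay below 1, but they cover counting error alone and rest on 14 wild-type reads, and no test across libraries was made.

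ARID3B and NR6A1 are DNA-binding regulators. ARID3B (ENSG00000179361.18, chr15:74541206-74598131, plus strand) binds AT-rich DNA through its ARID domain. It had 8.67, 8.96 and 10.3 CPM in wild-type cytoplasm, 8.29, 8.11 and 7.47 CPM in AGO1 and 9.41, 8.06 and 9.09 CPM in AGO2 knockout cytoplasm. It had 13.3, 14.4 and 11.9 CPM in double knockout and 12.2, 12.3 and 11.7 CPM in triple knockout cytoplasm, above all libraries of wild type and the single knockouts. The rise was 1.42-fold (log2 0.51 ± 0.09, edgeR adjusted p = 0.00036) and 1.30-fold (0.38 ± 0.09, adjusted p = 0.00475). The double knockout value was higher by 0.73 than in AGO1 (adjusted p = 9.7e-06) and by 0.58 than in AGO2 knockout cytoplasm (adjusted p = 0.00012). In the nucleus ARID3B had 17.1, 14.5 and 15.9 CPM in wild type and 13.3 to 18.1 CPM in the knockout libraries. The nuclear values in double and triple knockout cells, 0.08 ± 0.08 and 0.02 ± 0.08, were not called (adjusted p = 0.372 and 0.834), and both were below 0 with protein-coding transcripts only.

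NR6A1 (ENSG00000148200.17, chr9:124517275-124771311, minus strand), an orphan nuclear receptor of germ and embryonic cells, had its calls in the other fraction. In double and triple knockout cells it was called lower in nuclei and not called in the cytoplasm. In the cytoplasm it had 16.3, 16.6 and 10.5 CPM in wild type, 16.1, 14.1 and 15 CPM in double knockout and 14.2, 17.3 and 16.4 CPM in triple knockout cells, and the groups overlapped. Its log2 differences were 0.05 ± 0.14 and 0.14 ± 0.14 (edgeR adjusted p = 0.783 and 0.467), and both were below 0 without wild-type replicate 29. Without that library NR6A1 was also called lower in AGO2 knockout cytoplasm, at -0.41 (adjusted p = 0.0133). In nuclei it had 41.1, 42.8 and 28.7 CPM in wild type, 23, 20.9 and 22.9 CPM in double knockout and 26.3, 27.7 and 26.8 CPM in triple knockout cells, all below the lowest wild-type library. It fell to 0.592-fold (-0.76 ± 0.12, adjusted p = 4.8e-05) and 0.717-fold (-0.48 ± 0.12, adjusted p = 0.00284). In AGO2 knockout nuclei, with 28, 28.8 and 34.7 CPM, the value was -0.30 ± 0.12 (adjusted p = 0.0568), and it was called at -0.44 without wild-type replicate 29 and at -0.40 without AGO2 knockout replicate 10.

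NRAS (ENSG00000213281.5, chr1:114704469-114716771, minus strand) encodes a membrane-anchored GTPase that relays growth factor signals. It had 163, 159 and 142 CPM in wild-type cytoplasm, 185, 174 and 160 CPM in AGO1, 135, 156 and 133 CPM in AGO2, 236, 284 and 214 CPM in double knockout and 184, 189 and 195 CPM in triple knockout cytoplasm. The double knockout libraries were the highest, the triple knockout libraries lay between them and wild type, and the single knockouts overlapped wild type. NRAS rose 1.58-fold in double knockout (log2 0.66 ± 0.10, edgeR adjusted p = 6.6e-05) and 1.22-fold in triple knockout cytoplasm (0.29 ± 0.10, adjusted p = 0.0291). The second call was lost without wild-type replicate 28 or 29 or triple knockout replicate 12 or 14, at 0.23 to 0.31. NRAS was the 1 member called between triple knockout and double knockout cytoplasm, lower by 0.37 ± 0.10 on the log2 scale (adjusted p = 0.0463), where 2.47% of all genes were called higher and 2.48% lower. This call was lost without any 1 of 5 of the 6 libraries (all but double knockout replicate 11). Relative to the AGO1 and AGO2 knockouts the double knockout cytoplasm was higher by 0.50 and 0.79 (adjusted p = 0.00057 and 1.6e-05). In nuclei NRAS had 64.5, 65.9 and 60 CPM in wild type, 128, 140 and 109 CPM in double knockout and 102, 110 and 102 CPM in triple knockout cells, a rise of 1.98-fold and 1.65-fold (adjusted p = 2.9e-08 and 1.2e-06). The AGO1 knockout value of 0.21 ± 0.08 in nuclei (adjusted p = 0.0486) was lost without any 1 of the 6 libraries and turned to -0.020 with limma on log2(TPM + 1).

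In direct comparison with AGO1 knockout cytoplasm, double knockout cytoplasm had 5 members called higher and 1 lower, where 27.8% and 26.4% of all genes were called. Against AGO2 knockout cytoplasm it had 5 higher and 2 lower (23.1% and 22.7% of all genes), with LIN28B lower by 1.76 (adjusted p = 0.0064) and IGF2BP2 higher by 0.26 (adjusted p = 0.00274). The 2 comparisons share the double knockout libraries.

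Members were distributed unequally between the fractions of wild-type cells. In a fit of all 30 libraries 4 members were called higher in nuclear RNA and 3 lower, where 39.6% and 37.3% of all genes were called. HMGA2 was 2.17-fold higher in nuclear RNA (log2 1.12 ± 0.11, edgeR adjusted p = 4.6e-10), NR6A1 1.92-fold (0.94 ± 0.14, adjusted p = 2.1e-06), IGF2BP3 1.36-fold (0.44 ± 0.11, adjusted p = 0.00101) and ARID3B 1.26-fold (0.34 ± 0.09, adjusted p = 0.00103). NRAS was the most cytoplasmic member, at 0.304-fold in nuclear RNA (-1.72 ± 0.10, adjusted p = 1.5e-14). IGF2BP1 was at 0.643-fold (adjusted p = 0.0169), a call lost with DESeq2 or limma and without cytoplasmic wild-type replicate 29 or nuclear wild-type replicate 27, and IGF2BP2 at 0.692-fold (adjusted p = 1.4e-08), a direction that turned to 0.45 with limma on log2(TPM + 1). These values compare shares of each fraction's RNA and not amounts per cell, and in bulk RNA fewer cells with a transcript and fewer transcripts per cell cannot be told apart.

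Whether a knockout had a different effect in the nucleus than in the cytoplasm was tested as an interaction term. In double knockout cells 3 members were called, all with a lower nuclear effect (17% of all genes were called lower and 19.6% higher). The nuclear minus cytoplasmic difference was -1.26 ± 0.15 for HMGA2 (edgeR adjusted p = 4.4e-07), -0.89 ± 0.20 for NR6A1 (adjusted p = 0.00112) and -0.50 ± 0.12 for ARID3B (adjusted p = 0.00154). In triple knockout cells the same 3 members were called lower, where 11.1% of all genes were called lower and 11.7% higher. The values were -1.25 ± 0.15 (adjusted p = 2e-06), -0.71 ± 0.20 (adjusted p = 0.0126) and -0.44 ± 0.12 (adjusted p = 0.00884). The HMGA2 calls held in all 22 alternatives of each line. They are calls on gene totals, and no interaction was tested for single transcripts. In TPM, without TMM factors, the canonical HMGA2 transcript stood at 2.12 times wild type in nuclei and 1.92 times in cytoplasm of double knockout cells. In triple knockout cells it stood at 1.7 and 2.08 times. The ARID3B calls were lost with no filter (adjusted p = 0.0504 in double and 0.235 in triple knockout cells) and with limma on log2(TPM + 1), at -0.13 (0.343) and -0.23 (0.123). The NR6A1 call was lost in double knockout cells with limma on log2(TPM + 0.1) (adjusted p = 0.0683) and in triple knockout cells with only the groups compared (0.113). With passage as a block, NRAS (0.25, adjusted p = 0.00995) and IGF2BP2 (0.17, adjusted p = 0.0391) were called as well in double knockout cells, both with a higher nuclear effect, and NRAS (0.35, adjusted p = 0.00132) in triple knockout cells.

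Other genes were described by the letters in their 3′ UTR, without a test. In double knockout cytoplasm the median log2 fold change was -0.0014 over 564 other genes with an 8mer and -0.021 over 11045 without a match. Of those with an 8mer 29.4% were called higher and 29.3% lower, and of those without a match 26.7% and 29.4%. In double knockout nuclei the medians lay further apart, at 0.019 over 572 genes with an 8mer and 0.18 over 11023 without a match, and 37.2% and 45.2% were called higher and 32.7% and 24.5% lower. Among UTRs of at least 1500 bases the nuclear medians were -0.0085 with an 8mer and 0.14 without a match. Triple knockout nuclei had medians of -0.0056 with an 8mer and 0.14 without a match. Genes with an 8mer thus had lower nuclear values than genes without a match, also among UTRs of at least 1500 bases, and the cytoplasmic medians differed by little. The sets were not matched for UTR length. In nuclei the median UTR had 3108 bases with an 8mer and 1012 without a match. Among UTRs of at least 1500 bases it had 3890 and 2660. The part of UTR length in the nuclear difference was not tested.

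Of 26 further let-7 targets tested, from a list of 28, 9 were called higher and 4 lower in double knockout cytoplasm and 7 and 4 in triple knockout cytoplasm, with medians of 0.18 and 0.06. Of all genes 23.9% and 25.4% were called in the former and 18.6% and 20% in the latter. In double knockout nuclei 19 were higher and 4 lower, with a median of 0.47, where 32.9% and 34.7% of all genes were called and their median was -0.059. In triple knockout nuclei 12 were higher and 6 lower, with a median of 0.31, against 29.1% and 29.5% of all genes and a median of -0.033. PBX3, a homeodomain transcription factor, rose by 1.30 in triple knockout cytoplasm (edgeR adjusted p = 1.5e-06), and LIN28A, the paralog of LIN28B, by 1.62 (adjusted p = 0.00761) from a very low level. MYC fell by 0.997 (adjusted p = 1.7e-07) and CDK6 by 0.48 (adjusted p = 0.0123). The 13 genes of let-7 biogenesis and turnover include the member LIN28B and share DICER1 and LIN28A with the list of further targets. Of these 13, 2 were called higher and 8, with LIN28B among them, lower in double knockout cytoplasm, against 23.9% and 25.4% of all genes. In triple knockout cytoplasm 2 were higher and 2 lower, close to the 18.6% and 20% of all genes. In the latter DICER1, which cuts microRNA precursors and is itself a let-7 target, rose by 0.67 (adjusted p = 0.00154), while the nuclear export factor XPO5 fell by 0.41 and the nuclease DROSHA by 0.27. Of 5 let-7 host genes tested, edgeR called 1 higher and 1 lower in double knockout cytoplasm, against the same 23.9% and 25.4%. In triple knockout cytoplasm it called 0 of them, with 2 at an unadjusted p under 0.05, while DESeq2 called 0 and limma on log2(TPM + 1) called 1.

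Among the 5 client RNAs of the IGF2BP proteins is MYC, which is also on the list of further let-7 targets. These 5 also split, 3 higher and 2 lower in the cytoplasm of double and triple knockout cells. Of all genes 23.9% and 18.6% were called higher there and 25.4% and 20% lower. In triple knockout cytoplasm H19 rose by 1.40 (edgeR adjusted p = 0.00122) and IGF2 by 0.77 (adjusted p = 0.00578), while MYC and CD44 had values of -0.997 and -0.38 and were called lower. In AGO1 knockout cytoplasm 2 of the 5 were lower, where 8.13% of all genes were, and in AGO2 knockout cytoplasm edgeR called 0, with 1 at an unadjusted p under 0.05, and DESeq2 and limma on log2(TPM + 1) called 0.

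Genes with the most similar cytoplasmic profile were sought among 11638 genes by the Pearson correlation of log2(TPM + 0.1) over the 15 libraries, which share the 5 genotypes. SRGAP1 (0.963) and HOXC6 (0.961) were closest to HMGA2, CECR2 (0.983) and CDK7 (0.980) to IGF2BP3, and AMOTL2 (0.907) and EZR (0.904) to IGF2BP2. RHOC (0.940) and OLFM1 (0.933) were closest to ARID3B, TAOK1 (0.929) and TNRC6C (0.891) to NR6A1, and IKBIP and BMAL2 (0.939 each) to NRAS. These coefficients are descriptions without a test.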

How the data were processed

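The authors depleted ribosomal RNA, prepared stranded total RNA libraries, sequenced paired ends and aligned them to hg38. The submitters' processing notes name STAR 2.5.3a and Salmon 0.11.0, whereas the paper's methods name another version of each. The deposited estimated counts are Salmon's read numbers per transcript, not normalized, and the deposited TPM values divide them by effective length and scale each library to a fixed total. RN7SL1, RN7SL2 and RN7SK took 18.8% to 54.0% of the TPM of a library.

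Of 200401 transcripts, 97.82% matched GENCODE 44 by identifier, and the rest held 2.23% to 4.01% of the reads. Estimated counts were summed per gene, rounded, and tested with edgeR 4.0.16 (TMM, filterByExpr with a minimum count of 10, quasi-likelihood test) in R 4.3.3. Normalised CPM use TMM factors within a fraction, so CPM are not compared between fractions, and fold changes are edgeR's own. With simulated 2-fold changes in 196 genes, the test recovered 140 in the cytoplasmic triple knockout comparison (6 false calls) and 144 in the nuclear one (11 false calls). The triple knockout interaction test recovered 112 of 191 (3 false calls). In these simulations all other genes were unchanged, 196 of 17229 being changed in the cytoplasmic one. In the real cytoplasmic comparison 18.6% of genes were called higher and 20% lower, so the simulated false calls need not carry over. The alternatives were DESeq2 1.42.0, RLE factors, no filter, a mean of at least 50 reads, counts scaled for transcript length, limma 3.58.1 on log2(TPM + 1) and log2(TPM + 0.1), fitting the compared groups alone, omission of single libraries, a replicate block and, chosen after seeing the data, protein-coding transcripts only. Deviations of same-passage nuclear and cytoplasmic libraries correlated at 0.156, 0.148 and 0.402 in wild type, but passages 27 and 28 did so across numbers as well (0.169 and 0.144), and in each knockout line at least 1 same-passage pair was below 0.1. No 2 libraries of a group agreed within sampling noise (chi-square per degree of freedom 4.83 to 129).

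The members and gene lists were chosen with earlier results of these data known. The named genes are the 9 members, the 2 highest and 2 lowest called genes of each list in the cytoplasmic triple knockout comparison, and the 2 genes most like each member with a mean of at least 1 TPM. The 8 eCLIP samples were not analysed here. Figures were drawn with matplotlib 3.10.9.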

Additional observations from a re-analysis of the deposited data

Results flagged for a closer look

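The effect of the double knockout differed between nucleus and cytoplasm, by edgeR's interaction test, for HMGA2 (-1.26), NR6A1 (-0.89) and ARID3B (-0.50, all as nuclear minus cytoplasmic log2 fold change). The effect of the triple knockout differed for the same genes, at -1.25, -0.71 and -0.44. Of these, the ARID3B calls were lost with no filter and with limma, and the NR6A1 calls each under 1 alternative. For HMGA2 and ARID3B the cytoplasmic effect was a called rise and the nuclear one was not called, and for NR6A1 the nuclear effect was a called fall and the cytoplasmic one was not called. These are effects on gene totals. In TPM, without TMM factors, the canonical HMGA2 transcript stood at 2.12 and 1.7 times wild type in double and triple knockout nuclei. The other HMGA2 transcripts together stood at 0.335 and 0.357 times. The share of retained-intron transcripts in nuclear reads was lower in the same lines, and its part in the differences between fractions was not tested.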

How the results depend on the processing

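Of 1423 values of single members under the alternatives, 1224 kept their direction and side of the threshold, 117 lost a call, 25 gained one and 57 changed sign, 8 of these from a called value. The cytoplasmic changes of HMGA2 (0.80 to 1.42 and 0.93 to 1.37) and IGF2BP3 (-1.40 to -0.94 and -0.89 to -0.48) in double and triple knockout cells stayed called in all 15 alternatives each. Limma on log2(TPM + 1) moved the median of all genes, by -0.20 in double knockout and -0.13 in triple knockout cytoplasm. The median moved by -0.17, -0.17 and -0.16 in AGO1, AGO2 and triple knockout nuclei and by 0.29 between wild-type fractions. The limma fits take TPM as deposited, without the TMM factors of the main fit. With those factors the medians in double and triple knockout cytoplasm were -0.009 and -0.014. The cause of the shifts was not tested. Similar genes were sought with 1 setting. LIN28B and TRIM71 are limited by depth.

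Members called numbered 1 in AGO1 cytoplasm with limma (both pseudocounts, against 0). In AGO2 cytoplasm (3) there was 1 with only the groups compared and 1 to 3 with a library left out, 1 of them without wild-type replicate 27 or AGO2 knockout replicate 9 or 10. In double knockout cytoplasm (7) there were 2 and 3 with limma on log2(TPM + 1) and log2(TPM + 0.1), and in triple knockout cytoplasm (6) 2 and 2, with 6 to 7 and 4 to 6 when a library was left out. Between triple knockout and double knockout cytoplasm (1) there were 2 with no filter, a mean of 50 reads, DESeq2 or protein-coding transcripts, 0 with length-scaled counts or only the groups compared, and 0 to 2 with a library left out. In AGO1 nuclei (2) there was 1 with RLE, a mean of 50 reads, DESeq2, protein-coding transcripts or only the groups compared, 4 with limma on log2(TPM + 0.1), and 0 to 2 with a library left out (0 without AGO1 knockout replicate 6). In AGO2 nuclei (3) there were 5 with a mean of 50 reads or limma on log2(TPM + 1), and 3 to 5 with a library left out (5 without AGO2 knockout replicate 10). Between triple knockout and double knockout nuclei (1) there were 2 with no filter or limma, 0 with a mean of 50 reads, protein-coding transcripts or only the groups compared, and 0 to 3 with a library left out (3 without double knockout replicate 11). The double knockout interaction count (3) was 5 with limma and 5 with the replicate block. The triple knockout count was 4 with the block, and the block changed no call between wild-type fractions or between double knockout and AGO2 knockout cytoplasm. The cytoplasmic transcript share comparisons without overlap (2) were 2 to 4 with a library left out, 4 without wild-type replicate 28.

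Signs changed as follows. With limma on log2(TPM + 1) and log2(TPM + 0.1), in that order, cytoplasmic values became -0.065 and -0.066 for HMGA2, -0.092 and -0.094 for IGF2BP2 and -0.073 and -0.10 for NR6A1 in AGO1, -0.023 and -0.023 for IGF2BP2 in AGO2, and -0.16 and -0.23 in double knockout and -0.052 and -0.069 in triple knockout for NR6A1. Nuclear values became -0.32 and -0.32 for IGF2BP2 and -0.020 and -0.021 for NRAS in AGO1, -0.23 and -0.23 for IGF2BP2 and -0.13 and -0.14 for NRAS in AGO2, -0.28 and -0.28 for HMGA2 and -0.068 and -0.085 for ARID3B in double knockout, and -0.46 and -0.46 for HMGA2 and -0.14 and -0.17 for ARID3B in triple knockout. IGF2BP2 between wild-type fractions became 0.45 and 0.46, and IGF2BP1 in AGO2 nuclei -0.0031 with the smaller pseudocount. Length-scaled counts gave 0.00012 for ARID3B in AGO2 cytoplasm, -0.060 for IGF2BP2 in AGO1 nuclei and -0.18 for HMGA2 in double and triple knockout nuclei. A mean of 50 reads gave -0.025 and -0.050 for ARID3B in double and triple knockout nuclei, and no filter 0.014 for it in AGO1 nuclei. Protein-coding transcripts gave -0.013 for NRAS in AGO2 nuclei, -0.031 for HMGA2 and -0.017 for ARID3B in double knockout nuclei and -0.038 for ARID3B in triple knockout nuclei. With a library left out, cytoplasmic ranges were -0.037 to 0.17 for HMGA2, -0.18 to 0.12 for IGF2BP3 and -0.18 to 0.12 for NR6A1 in AGO1, -0.29 to 0.013 for LIN28B and -0.12 to 0.0065 for ARID3B in AGO2, and -0.13 to 0.17 in double knockout and -0.043 to 0.25 in triple knockout for NR6A1. Nuclear ranges were -0.14 to 0.011 for IGF2BP3, -0.074 to 0.053 for ARID3B and -0.20 to 0.057 for NR6A1 in AGO1, and -0.013 to 0.11 for ARID3B in triple knockout. The cause of these changes was not tested.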
